A study of Mus musculus with 10 samples.

Results

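The comparison set CD4+ T cells that had started as GFP+ cells of DEREG/Scurfy mice against CD4+ T cells that had started as GFP- cells of DEREG mice, after both had been given the same Foxp3-expressing retrovirus. It rests on 4 of the 10 arrays of the series, chosen by their titles, 2 for each starting cell, and it covers every gene that passed a filter on low values, 11326 of 18193 genes on the array. All cells came from spleen on a DEREG Balb/c background, were activated with antibodies to CD3 and CD28, were transduced with a retrovirus that carries an NGFR marker, and were sorted as NGFR+ before total RNA was labelled and hybridised to Affymetrix mouse expression arrays. The groups used here are the following, each with 2 arrays: scurfy Foxp3 (GFP+ cells of DEREG/Scurfy mice, Foxp3 vector), Tconv Foxp3 (GFP- conventional T cells of DEREG mice, Foxp3 vector), scurfy mock (the same GFP+ cells, called Mock in the descriptions and read as empty vector), Tconv mock (the same GFP- cells, empty vector), and Treg (GFP+ cells of DEREG mice, empty vector). Treg arrays served for levels, set beside those of the other groups, and for the shared estimate of spread, and no test compared them with another group. The titles call the GFP+ starting cells epigenetics(+) and the GFP- cells epigenetics(-). The descriptions abbreviate the source of the scurfy arrays as D_S, which was read as DEREG/Scurfy, while the strain field is the same for all arrays. The scurfy mutation, the disease of scurfy animals and the GFP sort therefore change together between the groups compared and cannot be told apart.

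Regulatory T cells (Treg) restrain immune responses, and their identity depends on the transcription factor Foxp3. Treg carry stable marks at particular genes, loss of DNA methylation at regions in Foxp3, Ikzf2, Ikzf4, Ctla4, Il2ra and Tnfrsf18 among them, that arise during Treg development and are largely lacking in conventional T cells made to express Foxp3. DEREG mice carry a GFP reporter under the control of the Foxp3 gene, so a GFP+ cell has switched on the Foxp3 promoter. Scurfy mice carry a mutation in Foxp3 that removes a functional protein, so their GFP+ cells have followed the Treg path without the protein and the animals develop autoimmune disease. A comparison of both starting cells under the Foxp3 vector asks what differs between cells that share the added factor and differ in history.

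Median intensity ran from 18.8 to 36.3 over the 10 arrays and the 75th percentile from 123 to 191. Replicates correlated across genes at 0.953 for scurfy Foxp3 and 0.975 for Tconv Foxp3, and 1791 genes (15.8%) and 492 genes (4.34%) differed by over 1 log2 unit between the arrays of those groups. T cell identity was plain on every array: Cd3e, a chain of the T cell receptor complex, read 3457 and 3829.8 in scurfy Foxp3 and 3490.4 and 4070.1 in Tconv Foxp3, and Cd4 read 4023 and 3810.5 in scurfy Foxp3 and 2292 and 2569.9 in Tconv Foxp3. Scurfy Foxp3 array 2 stood apart in Mki67, the proliferation antigen, at 640.4 on that array against 2811 to 3928 on the other 9 arrays, and B cell markers were highest on both scurfy Foxp3 arrays, as described below. In bulk RNA, fewer cells of a type and less RNA per cell cannot be told apart. Whether the 2 arrays of a group stem from different animals or cultures is not given, and p-values here express the scatter of arrays that may be technical.

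Between scurfy Foxp3 and Tconv Foxp3, 256 genes were called, meaning a Benjamini-Hochberg adjusted p under 0.05 in limma, which is 2.26% of the genes tested. Of these, 185 (1.63%) were higher and 71 (0.627%) were lower in scurfy Foxp3. On the higher side, Ikzf2, the chemokine receptor Cxcr6, Il1r2, Il10 and Foxp3, whose reporter was sorted on, held the 5 largest differences among called genes. On the lower side stood the T cell growth factor Il2, the heparan sulfate enzyme Hs3st3b1 and the diacylglycerol kinase Dgkk. The median difference over all genes was -0.07, and 1938 genes (17.1%) had an unadjusted p under 0.05. Positive differences were held by 5072 genes (44.8%). These shares of all genes are the background for the counts of each gene list below. All differences are log2 differences of group means of intensity + 16, scurfy minus Tconv, each with its model standard error (SE) and n = 2 arrays per group, and they understate the change of genes with low intensity.

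The calls rest on few arrays. Leaving out Tconv Foxp3 array 2 gave 9 calls, all of them among the 256. Leaving out Tconv Foxp3 array 1 gave 36, of which 35 were among the 256, and leaving out scurfy Foxp3 array 2 gave 33, of which 31 were. Without scurfy Foxp3 array 1 there were 243 calls, 69 higher and 174 lower, and 92 of them were among the 256. The 9 genes called in all 10 leave-one-out fits were Ikzf2, Cxcr6, Il1r2, Foxp3, Sdc4, Adam8, Tox2 and Pxdc1, all higher, and Hs3st3b1, which was lower. Every other gene called below lost its call without Tconv Foxp3 array 2, and the adjusted p it then had is given with it or as a range for its group.

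**Figure D1:**
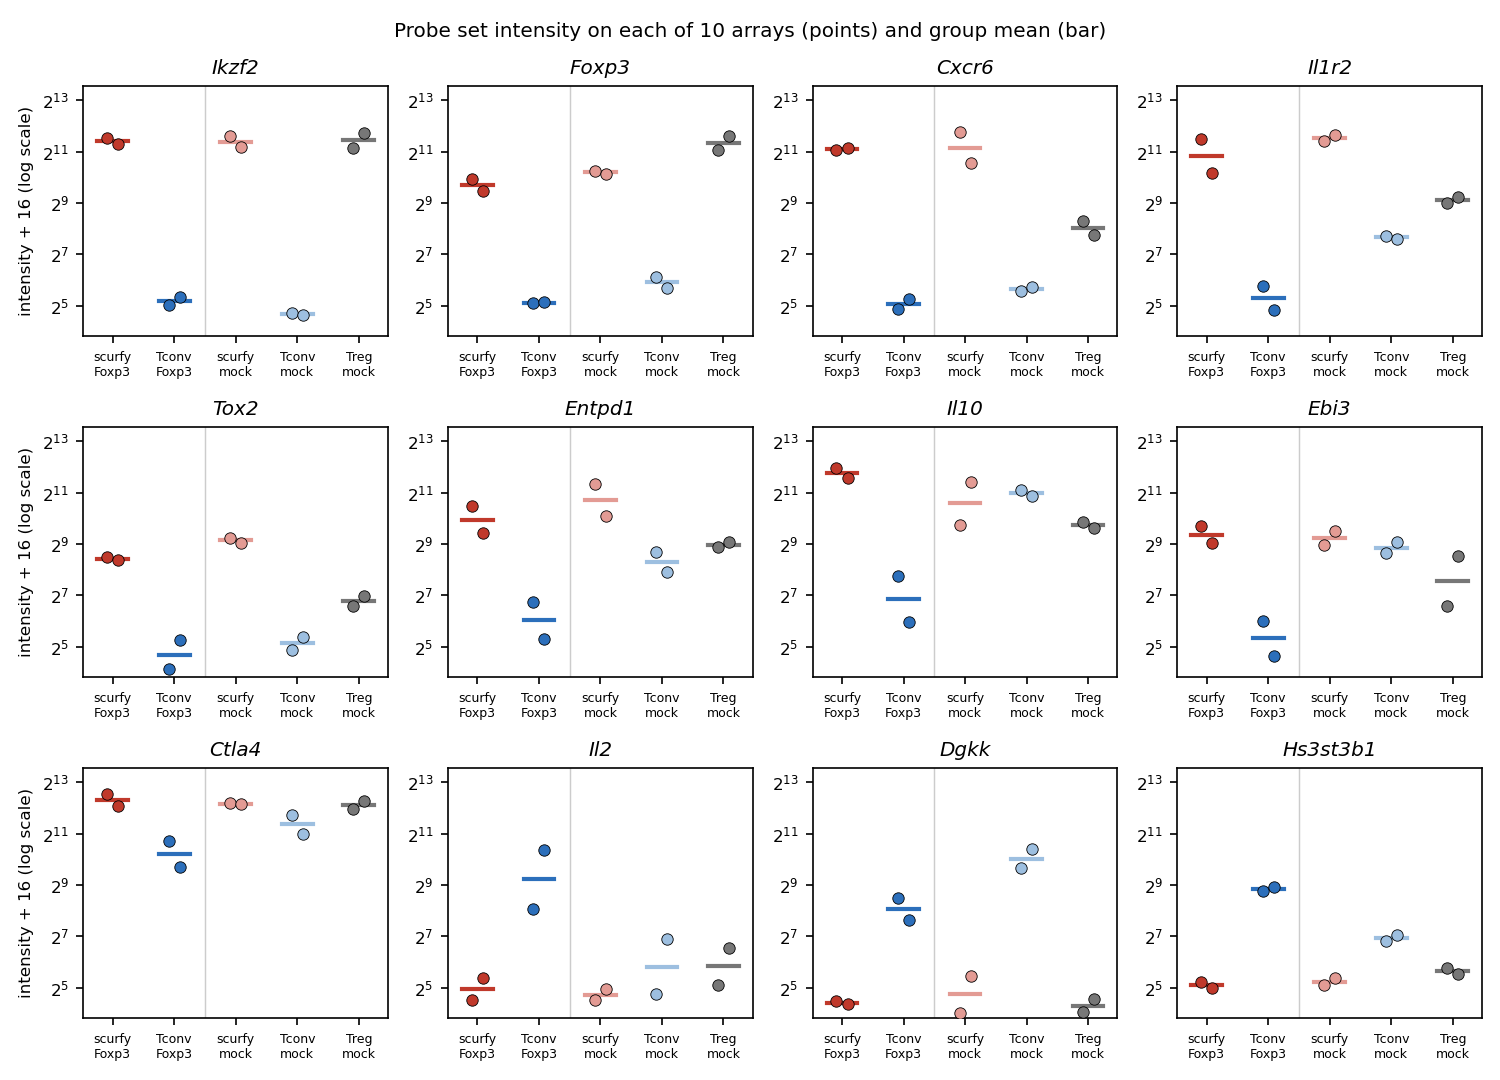
Intensity + 16 of 12 genes on each of the 10 arrays (points, log axis) with the mean of the log2 values per group (bars); the Foxp3-vector groups stand left of the grey line and the empty-vector groups right of it. Ikzf2, Foxp3, Cxcr6, Il1r2 and Tox2 separate scurfy from Tconv arrays under both vectors, while Il10 and Ebi3 are low on the Tconv Foxp3 arrays and not on the Tconv mock arrays. Of all genes, 48.4% separate the groups under the Foxp3 vector and 51% under the empty one.

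Ikzf2, the gene of Helios, a transcription factor of most thymus-derived Treg, had the largest difference of all. Its intensity was 2939.6 and 2472 in scurfy Foxp3 and 16.9 and 24.4 in Tconv Foxp3, against 3061 and 2303 in scurfy mock and 10.2 and 9.03 in Tconv mock. Scurfy and Tconv arrays did not overlap under either vector (as for 48.4% of all genes under the Foxp3 vector and 51% under the empty one). The scurfy Foxp3 arrays lay within the range of the scurfy mock arrays. The difference was 6.22 (SE 0.30, adjusted p = 5.99e-05) under the Foxp3 vector and 6.70 (SE 0.30, adjusted p = 3.05e-05) under the empty one. Treg read 2261 and 3341, around the levels of the scurfy arrays.

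Foxp3 was represented by 1 probe set, whose position in the transcript is not given in the sources used here, so it is no check on the vector. It read 948 and 691 in scurfy Foxp3 and 18.04 and 18.9 in Tconv Foxp3, a difference of 4.58 (SE 0.30, adjusted p = 3.54e-04), and the empty-vector arrays were at 1188 and 1114 for scurfy mock and 53.9 and 35.9 for Tconv mock. The probe set was thus lower under the Foxp3 vector than under the empty one in both starting cells. The titles that say Foxp3-transduced are taken as given. The starting cells were sorted by a reporter under the control of the Foxp3 gene, so a higher Foxp3 level in GFP+ cells was built into the comparison. Foxp3 is counted in the lists below with that limit. Flicr, a noncoding RNA transcribed beside Foxp3, read 187 and 306 in scurfy Foxp3 and 36.00 and 33.5 in Tconv Foxp3 (difference 2.34, SE 0.30, adjusted p = 0.00711). Its levels were higher in scurfy mock, at 570.2 and 505, and in Treg, at 1500.3 and 1243, and without Tconv Foxp3 array 2 its adjusted p was 0.0961.

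Among 22 Treg-related transcription factors, all tested, 4 were higher (Ikzf2, Foxp3, Maf and Ikzf4), 0 were lower and 18 were not called, with a median of 0.09 against -0.07 for all genes. Ikzf4, which encodes Eos, a partner of Foxp3, read 3575 and 2881 in scurfy Foxp3 and 523 and 479.5 in Tconv Foxp3, and 3294 and 3314 in scurfy mock and 721 and 539.8 in Tconv mock. The gap was alike under both vectors, 2.64 (SE 0.29, adjusted p = 0.0052) and 2.38 (SE 0.29, adjusted p = 0.0136), and its adjusted p was 0.0751 without Tconv Foxp3 array 2. Maf, a driver of Il10 in T cells, followed another pattern, at 6116 and 4747 in scurfy Foxp3 and 1142 and 189.9 in Tconv Foxp3 but 6994 and 5045 in scurfy mock and 5217 and 3427 in Tconv mock. Maf was low on the Tconv Foxp3 arrays alone, which gave a difference of 3.47 (SE 0.66, adjusted p = 0.0365, 0.113 without Tconv Foxp3 array 2). Bach2, a repressor that keeps T cells in a resting state, read 172 and 319.8 in scurfy Foxp3 and 1039 and 2120.0 in Tconv Foxp3 and was not called (difference -2.58, SE 0.59, adjusted p = 0.0659). Batf was not called either, at 0.98 (SE 0.50, adjusted p = 0.356).

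Among 6 genes with regions demethylated in Treg, 4 were higher (Ikzf2, Ikzf4, Ctla4 and Foxp3, whose reporter was sorted on). All 6 were on the positive side, as 44.8% of all genes were, and the median was 2.37. The other two, Il2ra and Tnfrsf18, were high on every array. Il2ra, the interleukin-2 receptor alpha chain CD25, read 9123 and 8310.1 in scurfy Foxp3 and 6657 and 5518 in Tconv Foxp3 (difference 0.52, SE 0.24, adjusted p = 0.313). Tnfrsf18, the receptor GITR, read 5195 and 3814 in scurfy Foxp3 and 4403 and 3352 in Tconv Foxp3 (difference 0.21, SE 0.33), and its sign turned to -0.01 without scurfy Foxp3 array 1. Under the empty vector 3 of the 6 were called higher, with a median of 1.59.

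Treg surface and effector molecules were the list with the most called members: of 30 listed, 26 had a named probe set and all of these were tested, 10 were higher, 0 lower and 16 not called. The median was 1.503, and 24 of 26 were positive. Of all genes, 44.8% were positive and 1.63% were called higher. Under the empty vector 1 of the 26 was called, Il1r2, and the median was 0.79 against 0.23 for all genes. Il10, the anti-inflammatory cytokine, read 3933 and 2983 in scurfy Foxp3 and 198 and 45.5 in Tconv Foxp3, and 834 and 2735 in scurfy mock and 2173 and 1835 in Tconv mock. The Tconv Foxp3 arrays were the lowest of the 10, while Tconv mock lay within the range of scurfy mock. Treg read 902 and 774, below the Tconv mock and scurfy Foxp3 arrays. The difference was 4.91 (SE 0.64, adjusted p = 0.00799) under the Foxp3 vector and -0.40 (SE 0.64, adjusted p = 0.802) under the empty vector. The gap between these differences was 5.30 (SE 0.90), with an unadjusted p of 2.23e-04 and an adjusted p of 0.217, so the change between vectors was not called. Without Tconv Foxp3 array 2 the adjusted p of the Foxp3-vector difference was 0.0815, and without scurfy Foxp3 array 2 it was 0.0667.

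Ebi3, a subunit shared by interleukins 27 and 35, had the same shape as Il10. It read 808 and 510.1 in scurfy Foxp3 and 47.3 and 9.17 in Tconv Foxp3, and 478 and 716 in scurfy mock and 384 and 517 in Tconv mock. The difference was 4.04 (SE 0.64, adjusted p = 0.0179) under the Foxp3 vector and 0.38 (SE 0.64) under the empty one. Penk, the precursor of the enkephalin peptides, was similar, with 3527 and 5073 in scurfy Foxp3 and 322 and 235 in Tconv Foxp3 (difference 3.86, SE 0.68, adjusted p = 0.0276) and 962 and 2937 in Tconv mock. Fgl2, a secreted fibrinogen-like protein through which Treg can suppress, read 333 and 386 in scurfy Foxp3 and 0.622 and 7.93 in Tconv Foxp3. Its scurfy mock arrays spread widely, at 758 and 112, and its difference under the Foxp3 vector was 4.23 (SE 0.79, adjusted p = 0.0358). Klrg1, a receptor of mature effector Treg, differed by 2.93 (SE 0.56, adjusted p = 0.0365). With Tconv Foxp3 array 2 left out, the adjusted p of these 4 genes lay between 0.176 for Ebi3 and 0.273 for Klrg1.

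Ctla4, the inhibitory receptor that strips costimulatory ligands from antigen-presenting cells, was high everywhere and lowest in Tconv Foxp3. It read 5865 and 4330.2 in scurfy Foxp3 and 1676 and 804 in Tconv Foxp3, against 4592 and 4502 in scurfy mock and 3336 and 2031 in Tconv mock. The difference was 2.10 (SE 0.40, adjusted p = 0.036), and the adjusted p was 0.278 without Tconv Foxp3 array 2. Icos, a costimulator, read 8064 and 6737 in scurfy Foxp3 and 2011 and 2626 in Tconv Foxp3, with a difference of 1.67 (SE 0.28, adjusted p = 0.0215, 0.12 without that array). Itgae, the integrin CD103, was not called. It read 1039.9 and 1913 in scurfy Foxp3 and 204 and 44.9 in Tconv Foxp3, and the Tconv mock arrays differed widely from each other at 2148 and 80.6 (difference 3.62, SE 1.22, adjusted p = 0.178). Izumo1r, the folate receptor 4 of natural Treg, went the other way without a call, at 2433 and 3075 in scurfy Foxp3 and 4466 and 4579 in Tconv Foxp3 (difference -0.72, SE 0.72).

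Il1r2, the decoy receptor that takes up interleukin-1 without signalling, and Cxcr6, the receptor for the chemokine CXCL16, were the receptor genes with the largest differences and among the 9 genes called in every leave-one-out fit. Their promoters are shown because both genes differed between the starting cells under both vectors. The 250 bases before each start are given from the RefSeq table, build GRCm38.p6, at chr1:40085843-40086092 on the plus strand for Il1r2 and chr9:123806227-123806476 on the plus strand for Cxcr6. Capitals mark matches to CACGTG (E-box), TTCNNNGAA (STAT), TGANTCA (AP-1) or TGTTTAC (forkhead) on either strand.
Il1r2: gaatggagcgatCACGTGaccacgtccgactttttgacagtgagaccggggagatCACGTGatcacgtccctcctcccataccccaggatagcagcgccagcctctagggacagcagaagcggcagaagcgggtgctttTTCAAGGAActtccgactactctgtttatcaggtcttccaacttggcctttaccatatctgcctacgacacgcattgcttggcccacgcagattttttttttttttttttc
Cxcr6: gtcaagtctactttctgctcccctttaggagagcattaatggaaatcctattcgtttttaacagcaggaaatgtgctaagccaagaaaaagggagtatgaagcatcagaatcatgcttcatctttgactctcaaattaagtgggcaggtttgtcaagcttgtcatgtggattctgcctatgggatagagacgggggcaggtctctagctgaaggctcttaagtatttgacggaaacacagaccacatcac
The Il1r2 window held CACGTG at 2 places, 238 and 195 bases before the start, and TTCNNNGAA once, 111 bases before it, and the Cxcr6 window held none of the 4 motifs. Of 32851 promoters of the same length, 6.02% held CACGTG, 7.02% TTCNNNGAA, 6.75% TGANTCA and 3.17% TGTTTAC. A match describes the letters only.

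Il1r2 read 2824 and 1126 in scurfy Foxp3 and 39.1 and 12.6 in Tconv Foxp3, and 2697 and 3197 in scurfy mock and 196 and 176 in Tconv mock. Scurfy arrays were above Tconv arrays under both vectors, as for 22.9% of all genes under the Foxp3 vector. Treg stood between scurfy and Tconv arrays at 489 and 593. The difference was 5.50 (SE 0.45, adjusted p = 0.00147) under the Foxp3 vector and 3.87 (SE 0.45, adjusted p = 0.0129) under the empty one. Of the 8 tested genes for receptors and inhibitors of the interleukin-1 family, 2 were higher, Il1r2 and the interleukin-18 receptor chain Il18r1, 0 were lower and the median was 1.41. Il18r1 was low, at 105 and 122 in scurfy Foxp3 and 3.49 and 16.2 in Tconv Foxp3, and close to the threshold (difference 2.36, SE 0.50, adjusted p = 0.0496, 0.195 without Tconv Foxp3 array 2). The signalling receptor Il1r1 (1.49, SE 0.51, adjusted p = 0.184) and the negative regulator Sigirr (-0.82, SE 0.35, adjusted p = 0.277) were not called.

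Entpd1 and Nt5e encode CD39 and CD73, the ectoenzymes that turn extracellular ATP into adenosine in sequence. Entpd1 read 1406 and 672 in scurfy Foxp3 and 89.8 and 23.9 in Tconv Foxp3, and 2542 and 1078 in scurfy mock and 394 and 227 in Tconv mock. The groups did not overlap under either vector, as for 48.4% of all genes under the Foxp3 vector and 51% under the empty one. The difference was 3.93 (SE 0.58, adjusted p = 0.0139) under the Foxp3 vector and 2.41 (SE 0.58, adjusted p = 0.141) under the empty one. Nt5e was low in all scurfy and Tconv arrays, at 61.96 and 124 in scurfy Foxp3 and 9.08 and 13.5 in Tconv Foxp3, against 838 and 720.3 in Treg. It was called (difference 1.94, SE 0.31, adjusted p = 0.0188), though 1 of its 2 other probe sets above the array median had the opposite sign. Without Tconv Foxp3 array 2 the adjusted p was 0.131 for Entpd1 and 0.136 for Nt5e. Of the 6 tested genes of the adenosine list those 2 were called, the median was 1.43, and Dpp4, which anchors adenosine deaminase (1.29, SE 0.62), and the phosphodiesterases Pde4b (1.57, SE 0.51) and Pde3b (0.43, SE 0.89) were not. Pde3b turned to -0.02 without Tconv Foxp3 array 1.

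Chemokine receptors and homing genes were the list with the next most calls. Of 20 tested members of 23 listed, 5 were higher (1.63% of all genes were), 0 lower and 15 not called, with a median of 1.11. Under the empty vector 4 of the 20 were called, as 0.574% of all genes were. Cxcr6 read 2111 and 2247 in scurfy Foxp3 and 13.3 and 22.3 in Tconv Foxp3, a difference of 6.03 (SE 0.40, adjusted p = 3.54e-04). Scurfy mock read 3433 and 1485 and Tconv mock 31.4 and 36.5, a difference of 5.51 (SE 0.40), while Treg were well below the scurfy arrays at 299.9 and 202. Gpr15, a receptor that guides T cells to the large intestine, read 263 and 347 in scurfy Foxp3 and 16.9 and 14.6 in Tconv Foxp3 (difference 3.33, SE 0.40, adjusted p = 0.00631). Ccr1, a receptor for inflammatory chemokines, read 129 and 134 in scurfy Foxp3 and 0.728 and 6.79 in Tconv Foxp3 (difference 2.92, SE 0.35, adjusted p = 0.00631). Cxcr4, the CXCL12 receptor, was abundant, at 4686 and 3781 in scurfy Foxp3 and 822 and 1217 in Tconv Foxp3 (difference 2.06, SE 0.36, adjusted p = 0.0264). Ccr8, a receptor of tissue Treg and Th2 cells, differed by 2.14 (SE 0.45, adjusted p = 0.0472) and by 0.37 (SE 0.45) under the empty vector, where it was not called. With Tconv Foxp3 array 2 left out, the adjusted p of Gpr15, Ccr1, Cxcr4 and Ccr8 lay between 0.0751 for Ccr1 and 0.363 for Ccr8. Ccr6 was not called (1.90, SE 0.80).

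**Figure D2:**
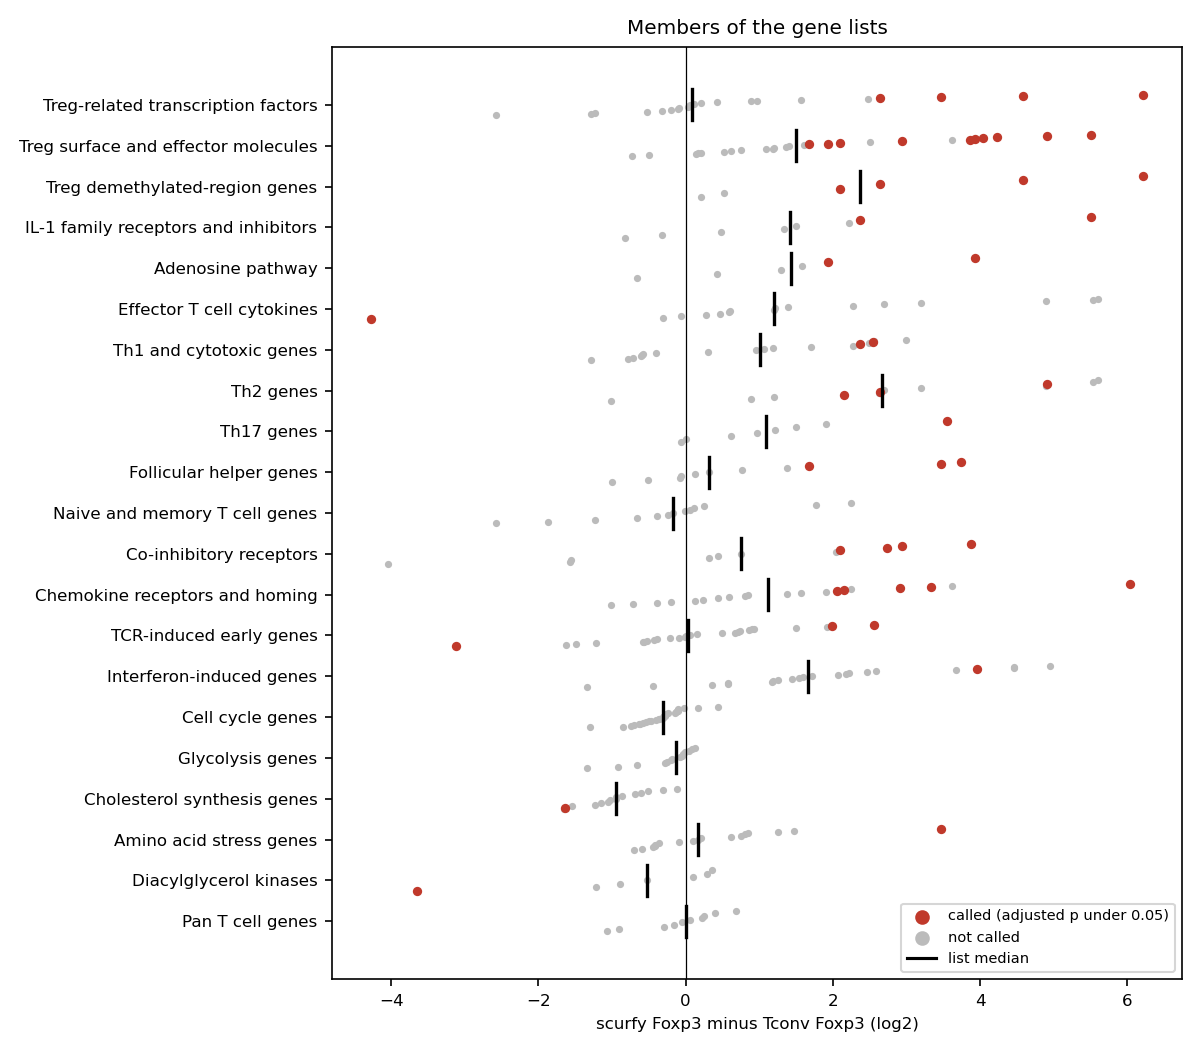
Difference between scurfy Foxp3 and Tconv Foxp3 (log2, x axis) for each tested member of the gene lists (rows); red points are called genes, grey points are not, and the black bar is the list median. Treg surface molecules hold 10 called members and homing genes 5, all to the right of 0, while cell cycle and glycolysis genes hold none.

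Il2, the T cell growth factor that Foxp3 represses in Treg, was the single effector cytokine called, and it was lower in scurfy Foxp3. It read 7.01 and 25.02 in scurfy Foxp3 and 254 and 1298 in Tconv Foxp3, and 6.96 and 14.8 in scurfy mock and 11.3 and 101 in Tconv mock. The Tconv Foxp3 arrays were thus the highest of the 10, though they differed widely from each other, and the difference was -4.28 (SE 0.86, adjusted p = 0.0418). Its adjusted p was 0.317 without Tconv Foxp3 array 2 and 0.154 without scurfy Foxp3 array 2. Under the empty vector the difference was -1.09 (SE 0.86, adjusted p = 0.601). Of 16 effector cytokines the other 15 were not called, and the list median was 1.20, which became 0.32 without scurfy Foxp3 array 1 and 1.79 without scurfy Foxp3 array 2.

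The Th2 cytokines had large differences with wide errors. Il5 read 1653 and 1139 in scurfy Foxp3 and 11.5 and 13.7 in Tconv Foxp3 (difference 5.605, SE 1.55, adjusted p = 0.114). Il13 read 5242 and 4049 in scurfy Foxp3 and 60.6 and 114 in Tconv Foxp3 (difference 5.54, SE 1.30, adjusted p = 0.0697), and Il4 read 4465 and 3579 in scurfy Foxp3 and 37.04 and 325 in Tconv Foxp3 (difference 4.90, SE 1.64, adjusted p = 0.177). The groups did not overlap for any of these cytokines under the Foxp3 vector, as for 48.4% of all genes, but the arrays within each mock group lay far apart: Il5 read 52.95 and 1351 in scurfy mock and 48.2 and 1871 in Tconv mock. The fit takes its spread from all 10 arrays, so those pairs enter the error. Of 12 tested Th2 genes of 15 listed, 3 were called higher (Il10, Ccr8 and the nuclear receptor Pparg), 11 were positive, as 44.8% of all genes were, and the median was 2.67. Under the empty vector the median was -0.10, 0 were called and 5 were positive, as 68.0% of all genes were. Pparg read 175 and 177 in scurfy Foxp3 and 16.6 and 13.04 in Tconv Foxp3, and 275 and 286 in scurfy mock and 319.9 and 623 in Tconv mock, a difference of 2.64 (SE 0.36, adjusted p = 0.0103, 0.118 without Tconv Foxp3 array 2) under the Foxp3 vector. Csf2, the growth factor GM-CSF, was not called (3.19, SE 0.96, adjusted p = 0.145).

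Th1 and cytotoxic genes held 2 called members of 18 tested, Ccl5 and Il18r1, with a median of 1.01. Ccl5, a chemokine of activated T cells, read 593 and 389 in scurfy Foxp3 and 81.97 and 58.2 in Tconv Foxp3 (difference 2.54, SE 0.40, adjusted p = 0.0179, 0.181 without Tconv Foxp3 array 2). Ifng, which encodes interferon gamma, read 1362 and 1751 in scurfy Foxp3 and 179 and 519 in Tconv Foxp3 and was not called (difference 2.27, SE 0.85, adjusted p = 0.224), nor was the granzyme Gzmc (2.49, SE 0.76). Among 8 Th17 genes 1 was called, Rora, a nuclear receptor of Th17 cells and of tissue Treg. Rora read 1186 and 515 in scurfy Foxp3 and 46.05 and 59.4 in Tconv Foxp3 (difference 3.55, SE 0.52, adjusted p = 0.0136), with 4.89 (SE 0.52, adjusted p = 0.00793) under the empty vector. Its adjusted p was 0.112 without Tconv Foxp3 array 2. Among 11 follicular helper genes 3 were called, Tox2, Maf and Icos, and the median was 0.31. Tox2, a DNA-binding protein of the TOX family, read 345 and 312 in scurfy Foxp3 and 1.63 and 21.97 in Tconv Foxp3, with 588 and 508 in scurfy mock and 13.6 and 26.00 in Tconv mock. Its difference of 3.73 (SE 0.38, adjusted p = 0.00459) kept its call in each leave-one-out fit, whereas the follicular receptor Cxcr5 was not called (1.38, SE 0.42).

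Co-inhibitory receptors held 4 higher members of 11 tested, Havcr2, Klrg1, Cd200r1 and Ctla4, with 0 lower and a median of 0.75. Havcr2, the receptor TIM-3 of effector and exhausted T cells, read 512 and 364 in scurfy Foxp3 and 14.04 and 15.1 in Tconv Foxp3 (difference 3.87, SE 0.54, adjusted p = 0.0115). Cd200r1, an inhibitory receptor for CD200, read 521 and 548 in scurfy Foxp3 and 98.8 and 43.3 in Tconv Foxp3 (difference 2.74, SE 0.51, adjusted p = 0.0358). Without Tconv Foxp3 array 2 the adjusted p was 0.112 for Havcr2 and 0.298 for Cd200r1. Lair1, an inhibitory collagen receptor, had the most negative difference of the list without a call, at 33.9 and 15.7 in scurfy Foxp3 and 765 and 538 in Tconv Foxp3 (difference -4.05, SE 0.94, adjusted p = 0.0666). Cd160 was also negative and not called, at 49.8 and 36.5 in scurfy Foxp3 and 98.5 and 243 in Tconv Foxp3 (difference -1.55, SE 0.40, adjusted p = 0.0948).

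Early genes of T cell receptor signalling moved in both directions, with 2 higher, 1 lower and 23 not called of 26 and a median of 0.03. Egr3, a zinc finger factor that limits T cell activation, read 70.8 and 175 in scurfy Foxp3 and 789 and 1529.8 in Tconv Foxp3 (difference -3.12, SE 0.55, adjusted p = 0.0279). Its direction was the same under the empty vector (-2.28, SE 0.55, adjusted p = 0.141), where it was not called. Ier3, an immediate early gene, was higher by 2.56 (SE 0.40, adjusted p = 0.0179), with 774 and 525 in scurfy Foxp3 and 133 and 66.6 in Tconv Foxp3, while Tconv mock read 1136 and 1658. Dusp4, a phosphatase that dampens MAP kinases, was higher by 1.99 (SE 0.38, adjusted p = 0.0369). With Tconv Foxp3 array 2 left out, the adjusted p lay between 0.177 for Ier3 and 0.273 for Dusp4. Myc read 406 and 532 in scurfy Foxp3 and 1423 and 1520.3 in Tconv Foxp3 and was not called (difference -1.63, SE 0.37, adjusted p = 0.062). Of 13 naive and memory T cell genes 0 were called (median -0.17). That list turned to 0.09 without Tconv Foxp3 array 2, and its members nearest to a call were Bach2, Foxp1 (-1.87, SE 0.45, adjusted p = 0.0773), Lef1 (-1.22, SE 0.42) and the interleukin-7 receptor Il7r (1.77, SE 0.43, adjusted p = 0.0784).

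Interferon-induced genes had a median of 1.66 with 20 of 22 tested members positive, yet 1 was called, Xaf1, at 1917 and 537 in scurfy Foxp3 and 42.8 and 59.6 in Tconv Foxp3 (difference 3.95, SE 0.85, adjusted p = 0.0499, 0.291 without Tconv Foxp3 array 2). The scurfy arrays differed from each other here: Rtp4 read 954 and 309 in scurfy Foxp3 and 2137 and 64.7 in scurfy mock, against 1.21 and 3.1 in Tconv Foxp3 and 18.6 and 0.332 in Tconv mock. The list median was 2.41 without scurfy Foxp3 array 2, 1.13 without scurfy Foxp3 array 1, and 1.499 under the empty vector, where 0 were called. Of all genes, 44.8% were positive under the Foxp3 vector. Oas1a (3.68, SE 0.83, adjusted p = 0.0628) and Oasl2 (2.21, SE 0.64), antiviral oligoadenylate synthetase genes, were not called.

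The growth and metabolic lists held 2 called genes of 75 tested (2.67%), near the 2.26% of all genes. Of 29 cell cycle genes 0 were called and 27 were negative, as 55.2% of all genes were, with a median of -0.31 that became -0.02 without scurfy Foxp3 array 2 and -0.58 without scurfy Foxp3 array 1. Mki67 read 3587 and 640.4 in scurfy Foxp3 and 3638 and 3928 in Tconv Foxp3 (difference -1.30, SE 0.63), and Aurkb (-0.74, SE 0.32), Cdc6 (-0.71, SE 0.32) and Bub1b (-0.58, SE 0.32) were likewise not called. Of 14 glycolysis genes 0 were called (median -0.13, 0.03 without scurfy Foxp3 array 2), among them the glucose transporter Slc2a3 (-1.33, SE 0.46) and the kinases Pdk1 (-0.92, SE 0.46) and Pfkp (-0.66, SE 0.36). All 15 cholesterol synthesis genes were negative, with a median of -0.95 and 1 call, the phosphomevalonate kinase Pmvk, at 625 and 654 in scurfy Foxp3 and 2396 and 1704 in Tconv Foxp3 (difference -1.64, SE 0.33, adjusted p = 0.0418, 0.188 without Tconv Foxp3 array 2). That median was -0.61 when Tconv Foxp3 array 1 was dropped and -1.29 when array 2 was, and Cyp51 (-1.65, SE 0.40, adjusted p = 0.0777), Fdps (-1.54, SE 0.52) and Fdft1 (-0.95, SE 0.33) were not called. Under the empty vector 9 of the 15 were negative, as 32.0% of all genes were, and the median was -0.31. Under the Foxp3 vector 55.2% of all genes were negative. Among 17 amino acid stress genes 1 was called, the stress protein gene Nupr1 (265 and 128 in scurfy Foxp3 and 3.18 and 1.42 in Tconv Foxp3, difference 3.46, SE 0.36, adjusted p = 0.00459, 0.0751 without Tconv Foxp3 array 2), and Ddit3 (1.47, SE 0.35), Chac1 (1.26, SE 0.43) and Slc3a2 (0.85, SE 0.28) were not.

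Hs3st3b1, an enzyme that adds 3-O-sulfate to heparan sulfate, was the one lower gene called in all leave-one-out fits. It read 21.02 and 15.3 in scurfy Foxp3 and 414 and 470.4 in Tconv Foxp3, and 18.5 and 25.03 in scurfy mock and 98.1 and 115 in Tconv mock. Tconv Foxp3 arrays were the highest of the series, and the difference was -3.75 (SE 0.26, adjusted p = 3.84e-04) under the Foxp3 vector and -1.70 (SE 0.26, adjusted p = 0.0299) under the empty one. Dgkk, a diacylglycerol kinase, had the reverse order of the Tconv groups, with 6.24 and 4.35 in scurfy Foxp3 and 343 and 183 in Tconv Foxp3, and 0.139 and 28.3 in scurfy mock and 785 and 1328 in Tconv mock. Its difference was -3.65 (SE 0.51, adjusted p = 0.0113, 0.0751 without Tconv Foxp3 array 2) and -5.28 (SE 0.51, adjusted p = 0.00443) under the empty vector. The other 6 tested diacylglycerol kinases were not called, with -0.89 (SE 0.49) for Dgkd. Dgkz and Dgka, which damp T cell receptor signals, differed by -1.21 (SE 0.34) and -0.52 (SE 0.41). Dnmt3a, a DNA methyltransferase that sets new methylation marks, was lower under both vectors, with 716 and 561 in scurfy Foxp3 and 1714 and 1821 in Tconv Foxp3, and 484 and 504 in scurfy mock and 1563 and 1262 in Tconv mock. Its difference was -1.46 (SE 0.25, adjusted p = 0.0268, 0.231 without Tconv Foxp3 array 2) and -1.48 (SE 0.25, adjusted p = 0.048), and Treg lay between at 929 and 933.

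Several other lower genes were highest, among the scurfy and Tconv arrays, on those of Tconv Foxp3. Ipcef1 read 124 and 97.5 in scurfy Foxp3 and 799 and 1683 in Tconv Foxp3, while scurfy mock read 32.4 and 68.7 and Tconv mock 43.7 and 25.7. Treg were also high at 966 and 731, and the difference was -3.22 (SE 0.42, adjusted p = 0.00865). Npas2, a circadian transcription factor, read 12.5 and 31.7 in scurfy Foxp3 and 274 and 407 in Tconv Foxp3 (difference -3.25, SE 0.41, adjusted p = 0.00733), with 71.5 and 39.02 in Tconv mock. Fgf13, a fibroblast growth factor homologue, read 7.18 and 0.278 in scurfy Foxp3 and 137 and 190.1 in Tconv Foxp3 (difference -3.19, SE 0.38, adjusted p = 0.00631), and Treg were again high at 101 and 194. Pros1, protein S, a ligand of receptors that calm innate cells, was abundant, at 284 and 579.9 in scurfy Foxp3 and 2781 and 3766 in Tconv Foxp3 (difference -2.94, SE 0.35, adjusted p = 0.00631). Prss2, a trypsinogen, read 16.8 and 0.498 in scurfy Foxp3 and 506 and 405 in Tconv Foxp3 (difference -4.33, SE 0.90, adjusted p = 0.0448), and the assignment is uncertain because trypsinogen genes are near-identical copies. Also among the 15 largest lower differences were Fam71b (-3.09), Lancl3 (-2.95), Igsf23 (-2.86), the lipid kinase Pip5k1b (-2.75), the neurofilament Nefh (-2.69) and the transcription factor Nfix (-2.63), with SE between 0.40 and 0.60. Without Tconv Foxp3 array 2 the adjusted p of the genes named in this paragraph lay between 0.0873 for Pros1 and 0.355 for Lancl3.

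The membrane proteases Adam8 and Adam19 and a proteoglycan were called higher under both vectors. Adam8, a metalloprotease of migrating leukocytes, read 527 and 349 in scurfy Foxp3 and 19.5 and 8.77 in Tconv Foxp3 (difference 3.91, SE 0.35, adjusted p = 0.002). Sdc4, the heparan sulfate proteoglycan syndecan-4, read 1852 and 1677 in scurfy Foxp3 and 128 and 76.2 in Tconv Foxp3 (difference 3.95, SE 0.36, adjusted p = 0.00204), and Treg read 986 and 1582. Adam19 read 793 and 386 in scurfy Foxp3 and 4.34 and 27.5 in Tconv Foxp3 (difference 4.26, SE 0.65, adjusted p = 0.0151, 0.0873 without Tconv Foxp3 array 2). Pxdc1, the last of the 9 genes called throughout, read 398 and 345 in scurfy Foxp3 and 23.6 and 36.3 in Tconv Foxp3 (difference 3.09, SE 0.27, adjusted p = 0.002) and differed by 1.87 (SE 0.27) under the empty vector. Gcnt1, which builds branched O-glycans on selectin ligands, differed by 3.71 (SE 0.53, adjusted p = 0.0131, 0.12 without that array) and by 3.78 (SE 0.53) under the empty vector. Tgfb2, a transforming growth factor, was low, at 115 and 81.2 in scurfy Foxp3 and 0.389 and 0.24 in Tconv Foxp3 (difference 2.79, SE 0.35, adjusted p = 0.00686), and Cpe, carboxypeptidase E, read 178 and 139 in scurfy Foxp3, far under Treg at 2178 and 1488 (difference from Tconv Foxp3 3.14, SE 0.31, adjusted p = 0.00406). With Tconv Foxp3 array 2 left out, the adjusted p of Tgfb2 and Cpe was 0.0873 and 0.0751.

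Other higher genes were lowest on the Tconv Foxp3 arrays. Lgals3, which encodes galectin-3, read 836 and 1093 in scurfy Foxp3 and 75.2 and 55.01 in Tconv Foxp3, against 900.3 and 595 in scurfy mock and 1477 and 678 in Tconv mock. Cyp11a1, the first enzyme of steroid hormone synthesis, read 1105 and 884 in scurfy Foxp3 and 137 and 15.7 in Tconv Foxp3, against 1232 and 1207 in scurfy mock and 1354 and 1147 in Tconv mock. In Treg, Lgals3 read 764 and 1288, while Cyp11a1 read 193 and 319, nearer to Tconv Foxp3 array 1 than to the scurfy arrays. The differences were 3.59 (SE 0.43, adjusted p = 0.00631) and 3.85 (SE 0.61, adjusted p = 0.0179) under the Foxp3 vector, and -0.44 (SE 0.43) and -0.03 (SE 0.61) under the empty one. Ttc39c (4.34, SE 0.60) and the antiviral membrane protein Ifitm3 (4.20, SE 0.61) were also lowest on the Tconv Foxp3 arrays, with Ifitm3 at 214 and 238 in Tconv Foxp3 and 1621 and 4420.5 in Tconv mock. The small GTP-binding protein Gem (4.03, SE 0.60), the forkhead factor Foxf1 (4.36, SE 0.87), the semaphorin receptor Nrp2 (4.03, SE 0.68) and Smim3 (3.98, SE 0.65) were also called. Without Tconv Foxp3 array 2 the adjusted p in this paragraph lay between 0.0751 for Cyp11a1 and 0.307 for Foxf1.

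Of the 185 higher genes, 66 read more on both scurfy Foxp3 arrays than on any of the other 8 arrays. So did 408 of all 11326 genes and 180 of the 900 genes with a difference over 1, and choosing genes by the scurfy Foxp3 level favours this. Sdc4, Pxdc1, Gem and Nrp2 were among the 66. The genes given next were too, and apart from Mapk10 and Tyrobp they were picked after their values were seen, so they stand for no tested theme. Mapk10, which encodes the kinase JNK3, read 274 and 263 in scurfy Foxp3 and 0.0722 and 0.0684 in Tconv Foxp3, with 0.0194 and 30.3 in scurfy mock (difference 4.14, SE 0.44, adjusted p = 0.00459). Tyrobp, the adaptor DAP12 of myeloid and NK cell receptors, read 284 and 383 in scurfy Foxp3 and 8.63 and 22.2 in Tconv Foxp3, and at most 50.9 on the other 6 arrays (difference 3.49, SE 0.45, adjusted p = 0.00799). Fcer1g, the shared Fc receptor gamma chain, read 127 and 118 in scurfy Foxp3 and 11.9 and 17.3 in Tconv Foxp3 (difference 2.18, SE 0.35, adjusted p = 0.0179). The C-type lectin Clec4n read 76.7 and 76.2 in scurfy Foxp3 and 1.5 and 0.926 in Tconv Foxp3 (difference 2.43, SE 0.26, adjusted p = 0.00504), and Clec4d differed by 2.85 (SE 0.46). Mmp12, the macrophage elastase, read 211 and 117 in scurfy Foxp3 and 0.135 and 0.49 in Tconv Foxp3 (difference 3.41, SE 0.38, adjusted p = 0.0052), and Mmp13, a collagenase, differed by 2.40 (SE 0.25). Clec4n, Clec4d, Mmp12 and Mmp13 passed the filter only through the scurfy Foxp3 arrays, where they are high. Their calls are therefore tied to that filter and nothing is drawn from them. Cd86, a costimulatory ligand of antigen-presenting cells, read 342 and 324 in scurfy Foxp3 and 16.8 and 0.682 in Tconv Foxp3 (difference 3.90, SE 0.71), Cxcl16, the ligand of Cxcr6, read 379.6 and 376 in scurfy Foxp3 and 54.2 and 43.7 in Tconv Foxp3 (difference 2.60, SE 0.29), and Cd40 (1.52, SE 0.30) and the cytokine receptor chain Csf2rb (3.51, SE 0.71) were called as well. With Tconv Foxp3 array 2 left out, the adjusted p of these genes lay between 0.0751 for Mapk10 and 0.265 for Cd86.

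All 6 myeloid markers that passed the filter, of 12 listed, were positive, as 44.8% of all genes were, with a median of 1.57 and 1 call, Tyrobp. Under the empty vector 4 of the 6 were positive, with a median of 0.24. Fcgr3, an Fc receptor, read 68.9 and 75.5 in scurfy Foxp3 and 32.3 and 23.96 in Tconv Foxp3, and at most 46.9 on the other 6 arrays. Itgax, the integrin chain CD11c, read 29.7 and 47.3 in scurfy Foxp3 and 9.47 and 1.09 in Tconv Foxp3, and the lysozyme gene Lyz2, which did not pass the filter, read 27.8 and 17.6 in scurfy Foxp3 and 11.1 and 10.7 in Tconv Foxp3. Tyrobp, Fcgr3, Itgax and Lyz2 were each higher on both scurfy Foxp3 arrays than on any other array. The receptor gene Csf1r read at most 31.5, and Itgam, Cd14, Adgre1, S100a8 and S100a9 were at or below 21.6 on every array. The summed intensity of the 12 markers was 3684 and 3276 in scurfy Foxp3 and 820 and 1022 in Tconv Foxp3, against 4595 and 1922 in scurfy mock and 1990 and 1100 in Tconv mock, and most of it was Ctss, a protease that T cells also express (3105 and 2385 in scurfy Foxp3 and 689.9 and 887 in Tconv Foxp3). Cd68 (2.10, SE 0.50, adjusted p = 0.0747) and Itgax (1.37, SE 0.38) were not called. The part of these markers in the differences above was not tested.

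B cell markers were all on the positive side, 10 of 10 tested of 12 listed, as 44.8% of all genes were, with 0 called and a median of 1.32. Their summed intensity was 5582 and 10727 in scurfy Foxp3 and 1389 and 1789 in Tconv Foxp3, against 556 and 2559 in scurfy mock, 275 and 247 in Tconv mock and 373 and 4197 in Treg. Cd79a, a chain of the B cell receptor, read 302 and 933 in scurfy Foxp3 and 52.8 and 89.2 in Tconv Foxp3 (difference 2.69, SE 0.90, adjusted p = 0.178), and Cd74, the class II invariant chain, read 2041 and 3207 in scurfy Foxp3 and 439 and 421 in Tconv Foxp3 (difference 2.53, SE 1.33). The class II gene H2-Ab1 (1.46, SE 0.39) and Pax5 (1.17, SE 0.43) were not called. The sum of B cell markers was thus highest on both scurfy Foxp3 arrays, with Treg array 2 next, where Tyrobp read 50.9. The part of B cell markers in the differences above was not tested. CD8, NK, mast cell and red blood cell markers stayed low in both Foxp3-vector groups, with summed intensities of at most 161, most of it Hdc, the histamine-forming enzyme, at 151 and 133 in scurfy Foxp3 and 22.1 and 56.1 in Tconv Foxp3.

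**Figure D3:**
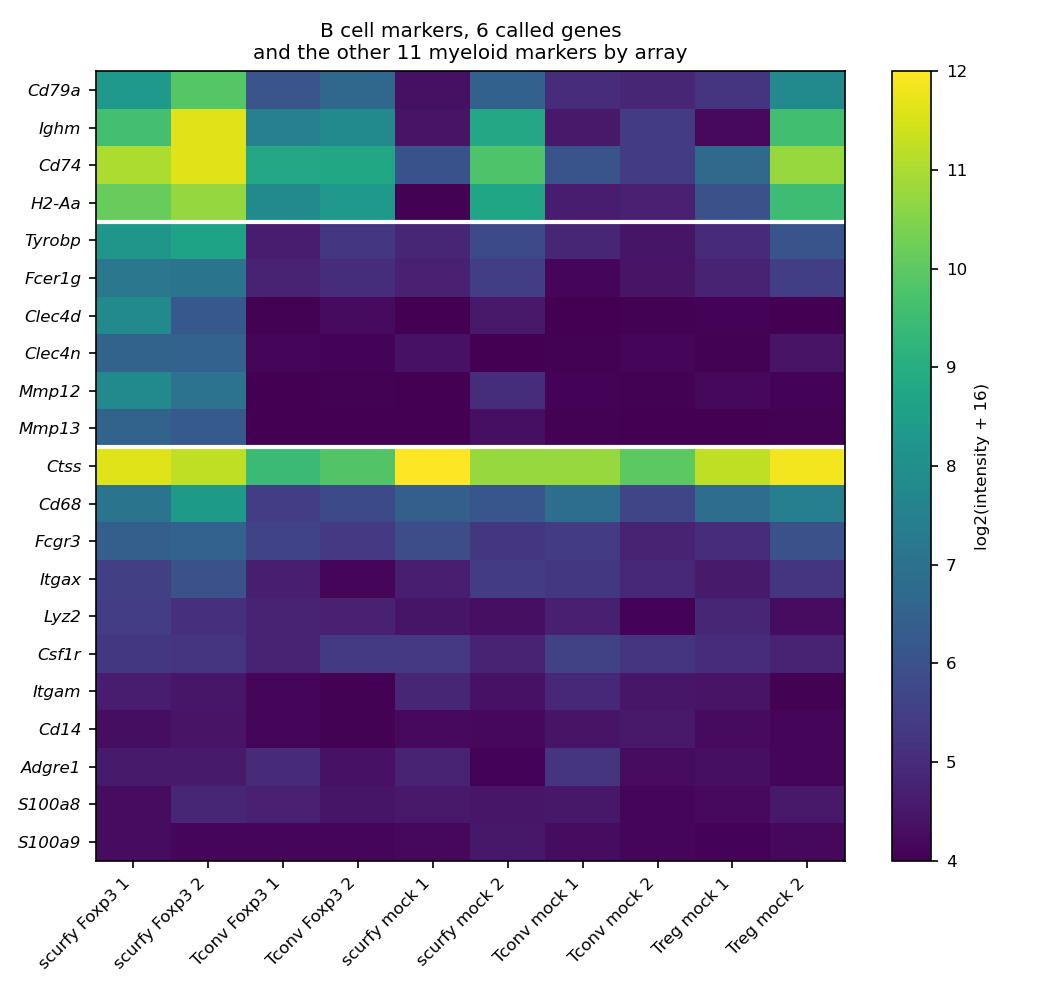
log2(intensity + 16) of 4 B cell markers (top rows), 6 called genes (middle rows; Tyrobp is also a myeloid marker) and the other 11 myeloid markers (bottom rows) on each of the 10 arrays (columns). The middle rows are brightest on the 2 scurfy Foxp3 arrays, the bottom rows are bright for Ctss on every array and for Cd68 more weakly and dark for most others, and the top rows are brightest on scurfy Foxp3 array 2. Clec4d, Clec4n, Mmp12 and Mmp13 passed the filter only through the scurfy Foxp3 arrays.

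The same starting cells were also compared under the empty vector, with means from 4 other arrays. Both comparisons come from 1 fit over the 10 arrays and share its estimate of each gene's spread, so their calls and the overlap of those calls are not independent. Under the empty vector 65 genes (0.574%) were called, 50 (0.441%) higher and 15 (0.132%) lower in scurfy mock, and the median over all genes was 0.23. Called under both vectors and in the same direction were 38 genes, 34 higher and 4 lower, which is 14.8% of the Foxp3-vector calls and 58.5% of the empty-vector calls, and 0 genes were called in opposite directions. The 4 lower ones were Dnmt3a, Dgkk, Hs3st3b1 and Ube2e2 (adjusted p = 0.21 under the Foxp3 vector without Tconv Foxp3 array 2), and the higher ones included Ikzf2, Foxp3, Ikzf4, Flicr, Cxcr6, Il1r2, Tox2, Rora, Gpr15, Ccr1 and Cxcr4. Of the 50 genes higher in scurfy mock, 49 were positive under the Foxp3 vector, as 44.8% of all genes were, and of the 15 lower genes 12 were negative, as 55.2% of all genes were. In the other direction 167 of 185 genes higher in scurfy Foxp3 were positive under the empty vector, as 68.0% of all genes were, and 63 of 71 lower genes were negative, as 32.0% of all genes were. Their medians were 2.48 under the Foxp3 vector and 1.08 under the empty one for the higher genes, and -1.92 and -0.74 for the lower genes, though the Foxp3-vector medians come from the values that chose these genes. The overlap of 38 genes was 1 when the groups of each comparison were fitted alone, 5 when either Tconv Foxp3 array 2 or array 1 of Tconv mock was dropped, 8 when the other array of either group was, 21 without scurfy Foxp3 array 2 or scurfy mock array 1, and 66 without scurfy mock array 2.

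**Figure D4:**
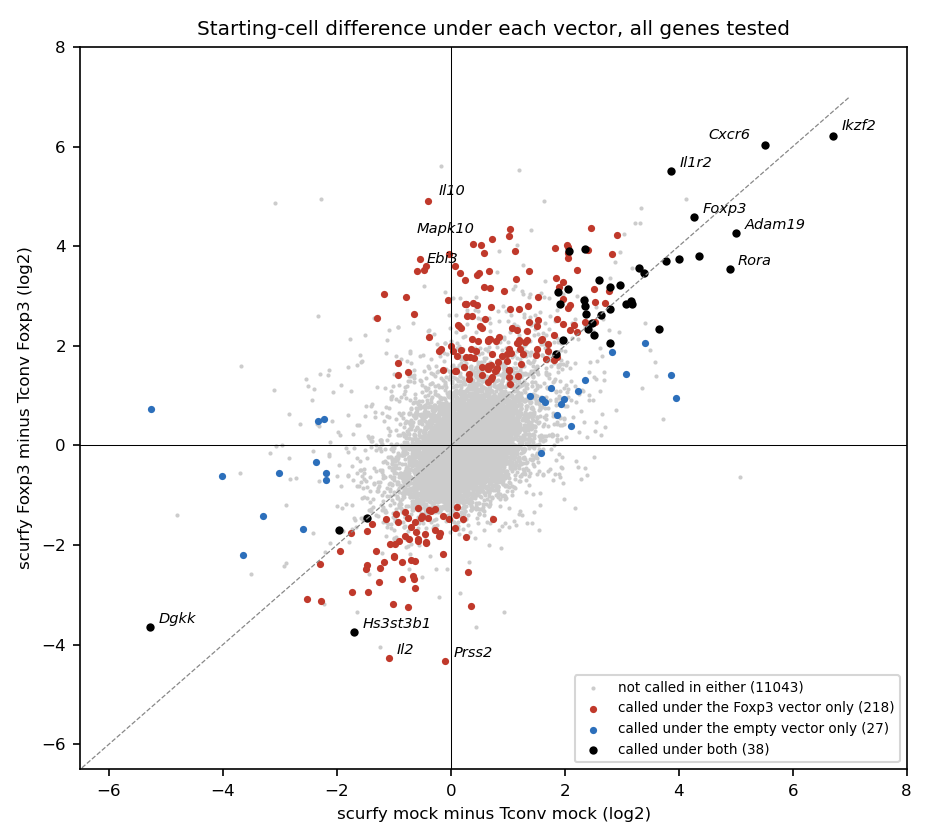
Difference between scurfy and Tconv arrays under the Foxp3 vector (y axis, log2) against the same difference under the empty vector (x axis, log2) for 11326 genes; the dashed line marks equal differences and no array is shared by the axes. Ikzf2, Foxp3 and Cxcr6 lie near the line, and Il10 and Ebi3 lie far above it near 0 on the x axis.

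The difference between the 2 comparisons was tested as an interaction and called 0 genes in limma, with 915 genes (8.08%) at an unadjusted p under 0.05 and a lowest adjusted p of 0.217. Hence no single gene can be said to differ more between the starting cells under one vector than under the other. Among the 256 called genes, 127 had an unadjusted interaction p under 0.05. The interaction contains the Foxp3-vector difference that chose these genes, so the choice itself raises that count and nothing is drawn from it. The interaction estimate was -0.49 (SE 0.42) for Ikzf2, 0.31 (SE 0.43) for Foxp3, 0.27 (SE 0.41) for Ikzf4 and 0.52 (SE 0.56) for Cxcr6, and 5.30 (SE 0.90) for Il10, 4.04 (SE 0.61) for Lgals3 and 3.85 (SE 0.57) for Ier3. The median interaction over all genes was -0.28, and 0.01 after quantile normalization, so positive estimates stand above a slightly negative background. Without scurfy mock array 2 the interaction called 28 genes, Il10, Mapk10, Mmp12 and Gem among them.

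The group that moved was read from the means. Of the 185 higher genes, 63 were lower by over 1 log2 unit in Tconv Foxp3 than in Tconv mock (334 of all 11326 genes), and 48 were higher by over 1 in scurfy Foxp3 than in scurfy mock (339 of all genes). Among the 900 genes with a Foxp3-vector difference over 1, called or not, these counts were 214 and 207. Of the 71 lower genes, 39 were higher by over 1 in Tconv Foxp3 than in Tconv mock (678 of all genes), and 2 were lower by over 1 in scurfy Foxp3 than in scurfy mock (205 of all genes). Among the 556 genes with a Foxp3-vector difference under -1, called or not, these counts were 197 and 46. Choosing genes by the Foxp3-vector means favours all of these counts, so they are a description. The mean of the Treg arrays was nearer to scurfy Foxp3 than to Tconv Foxp3 for 57.3% of the higher and 69.0% of the lower genes, against 56.9% of all genes. The share was 50.2% of all genes with a difference over 1 and 62.1% of those with a difference under -1.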

How the data were processed

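RNA of 10 samples (5 groups of 2) was measured on Affymetrix mouse expression arrays. The deposited values are linear signal intensities, one per probe set, which the authors computed with Affymetrix Expression Console, per the submitters' processing notes (version not given in the sources used here). Of 45101 probe sets, 64 were controls, 34945 had 1 gene symbol in the platform annotation, 932 several and 9160 none; only those with 1 symbol were used. For each of 18193 genes one probe set was kept, that of highest average across the 10 arrays, and genes above the array's median on at least 2 arrays were tested (11326). Values were taken as log2(intensity + 16). limma 3.58.1 in R 4.3.3 fitted the 5 group means over all 10 arrays (lmFit, eBayes, 5 residual degrees of freedom), and Benjamini-Hochberg adjustment covered all genes of a comparison, with a threshold of 0.05. The pipeline was tested on simulated data.

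The groups compared, the gene lists and the tests were chosen with earlier results of these data known. Named genes are the 15 largest called differences in each direction (clone names left out), a set of Treg genes, every called member of each list and up to 4 members with the smallest p; of these, some markers of T and other cells have no value printed. Named after their values were seen were Clec4n, Clec4d, Mmp12, Mmp13, Fcer1g, Cd86, Cd40, Cxcl16, Adam8, Sdc4, Lgals3, Cyp11a1, Dnmt3a, Flicr, Cpe, Csf2rb, Il4, Tgfb2, Gcnt1, Itgae, Izumo1r, Cd3e, Cd160, Pxdc1, Ube2e2, Lair1. Replicate numbers were not used as pairs in the main fit, and whether they pair the arrays is not given. Same-numbered arrays of scurfy Foxp3 and Tconv Foxp3 had deviations that correlated at -0.06, and over all pairs of groups the range was -0.17 to 0.18. Normalization, pseudocount, filter, probe set choice, spread model, array weights, samples in the fit, blocking on replicate number and the arrays included were varied. The number of arrays limits the precision.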

Additional observations from a re-analysis of the deposited data

How the results depend on the processing

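Of the 256 genes called between scurfy Foxp3 and Tconv Foxp3, the count was 110 with a pseudocount of 1, 124 with no filter, 110 with each probe set tested, 119 with array weights, 490 with the compared groups alone and 9 to 374 when an array was left out. The 65 empty-vector calls became 35 with a pseudocount of 1, 41 with a pseudocount of 64, 28 with no filter, 25 with each probe set tested, 107 with a trended and robust spread, 1 with the compared groups alone, and 5 to 233 when an array was left out, with 5 without Tconv mock array 1 and 233 without scurfy mock array 2. The 38 genes called under both vectors became 20 with a pseudocount of 1, 17 with no filter, 17 with each probe set tested, 59 with a trended and robust spread, 1 with the compared groups alone, and 5 to 66 when an array was left out. The interaction called 0 genes except Vim with a trended and robust spread (1 gene, 1.497, limma adjusted p = 0.0422), Gab2 without Tconv Foxp3 array 1 (4.84, adjusted p = 0.0416) and 28 genes without scurfy mock array 2, so 0 to 28 when an array was left out. The cause of these changes in count was not tested, the fewer residual degrees of freedom of a fit on fewer arrays included.

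With replicate number as a block, 167 genes were called under the Foxp3 vector and 42 under the empty one. Whether the numbers pair the arrays is not given. Same-numbered arrays correlated at -0.17 to 0.18 in their deviations, which cannot settle it.

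Of 75 called genes named in the text, 9 kept their call in all 22 alternatives, and none changed sign in any alternative in which it was tested. Clec4d, Clec4n, Mmp12 and Mmp13 were tested in 19 of the 22, and Fcer1g, Lancl3, Nefh and Tgfb2 in 21. Clec4d, Clec4n, Mmp12 and Mmp13 did not pass the filter when either scurfy Foxp3 array was left out, so those fits could not test them. Among genes not called, Cd3e turned to 0.022 after quantile normalization and ranged from -0.16 to 0.060 when an array was left out, Pde3b ranged from -0.025 without Tconv Foxp3 array 1 to 0.89, and Tnfrsf18 from -0.010 without scurfy Foxp3 array 1 to 0.43.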
